A study of Mus musculus with 33 samples.

Results

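The genes described are 9 of the 16336 in the expression table: Atf4 and 8 genes known as its targets under amino acid stress, namely Ddit3, Trib3, Atf3, Chac1, Asns, Sesn2, Psat1 and Phgdh. They were taken by gene symbol, and each symbol matched 1 row. The set was chosen by the day 0 level of Chac1, which was higher in both undifferentiated mutant clones than in wild-type cells, so the day 0 difference between clones and wild type is given below as a description, with no test. The samples were mouse embryonic stem cells of the 129/Ola line E14Tg2a, genotype WT, and 2 clones derived from it, ΔK9.1 and ΔK9.2. Both clones are homozygous for a CRISPR deletion of the H3K9me3-marked stretch between the Nanog enhancer and promoter, and each line is 1 clone. Day 0 cells were undifferentiated, grown on gelatine with serum and LIF, and the others were collected after 4, 6 or 8 days of embryoid body (EB) differentiation in serum without LIF. Per the study's methods the aggregates floated up to day 4 and were then put back on gelatine at low density until days 6 and 8, so from day 6 on, time and this change of culture cannot be told apart. Each line and day had 3 libraries, except day 6 with 2 (replicates 2 and 3), which makes 33 libraries in 12 groups.

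ATF4 is a leucine zipper transcription factor at the centre of the integrated stress response. When amino acids run short or the endoplasmic reticulum is overloaded, kinases phosphorylate the initiation factor eIF2alpha, most translation slows and the Atf4 message is translated better, so that ATF4 protein can rise with little change of its mRNA. ATF4 then switches on genes that make or import amino acids and, under lasting stress, genes that slow growth or favour cell death. Only mRNA was measured here. Levels are in TPM, the share of all transcripts that a gene takes, which are scaled for transcript length and so can be compared between genes, and differences are in log2(TPM + 1), a scale that understates the change of low genes.

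In mm10 with GENCODE M21, the genes lie on 8 chromosomes. Atf4 is at chr15:80255184-80257541 (+), Ddit3 at chr10:127290774-127296288 (+), Trib3 at chr2:152337422-152344032 (-), Atf3 at chr1:191170296-191218039 (-) and Chac1 at chr2:119351229-119354381 (+). Asns is at chr6:7675169-7693254 (-), Sesn2 at chr4:132492032-132510501 (-), Psat1 at chr19:15904678-15947337 (-) and Phgdh at chr3:98313170-98339990 (-). All are protein coding. The annotation holds a second, overlapping Ddit3 record at chr10:127290829-127293753, so reads of Ddit3 may have been divided between both, and its level is uncertain for that reason.

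ATF4 binds as a dimer with C/EBP factors, and 3 letter patterns known for such sites were searched on both strands in the 250 bases before each RefSeq start site (GRCm38.p6). The C/EBP-ATF response element TGATGNAAN occurred in 3.44% of 32851 mouse promoters, the composite site TGACGCAA in 0.438% and the cAMP response element TGACGTCA in 1.55%. Chac1, Atf3 and Asns held at least 1 of these patterns, and only Chac1 held 2 of them. The stretches are shown because Chac1 is the gene that chose the set and Asns is the textbook amino acid response gene. Capitals mark the matched letters, each stretch is written 5′ to 3′ on the strand of its gene, and the first one is chr2:119350992-119351066 (+), upstream of the annotated gene.
Chac1: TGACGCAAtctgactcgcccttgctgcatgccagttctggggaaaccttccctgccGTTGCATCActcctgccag
Atf3: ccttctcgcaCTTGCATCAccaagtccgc
Asns: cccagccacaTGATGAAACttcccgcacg
In Chac1 the TGACGCAA match lay 243 to 250 bases before the start and the TGATGNAAN match, on the opposite strand, 186 to 194 bases before it. The Atf3 stretch is chr1:191183426-191183454 (-), with its match 103 to 111 bases before the start, and the Asns stretch is chr6:7693214-7693242 (-), with its match 15 to 23 bases before the start. The windows of the other 6 genes held none of the 3 patterns. The Atf3 and Asns stretches and the Psat1 windows lie inside the GENCODE gene bounds given above, since RefSeq starts were used. The GENCODE start of Psat1 was not searched.

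The members spanned a wide range of levels. Averaged over the 12 groups, Atf4 was at 215 TPM, Psat1 at 203 TPM, Asns at 181 TPM and Phgdh at 159 TPM, above 94.9% to 96.3% of the genes in the table. Sesn2 was at 44.6 TPM, Ddit3 at 33.7 TPM and Trib3 at 20.8 TPM. Chac1, at 15.3 TPM, and Atf3, at 5.82 TPM, were the lowest. Atf4 and the amino acid enzymes were thus among the abundant messages of these cells, at a level far above the stress-induced factors Ddit3 and Atf3. Phgdh varied least between groups, with the highest group mean 1.77 times the lowest, and Atf3 varied most, at 9.54 times.

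In undifferentiated cells Chac1, a glutathione-degrading cyclotransferase, was at 22.0, 11.5 and 17.1 TPM in E14Tg2a, at 26.1, 33.9 and 30.0 TPM (ΔK9.1) and at 25.9, 24.6 and 34.2 TPM (ΔK9.2). Every clone library was above every E14Tg2a library, and the nearest were 24.6 and 22.0 TPM. The ratio of the mean to that of E14Tg2a was 1.78 (ΔK9.1) and 1.68 (ΔK9.2). Atf4 was at 257, 251 and 281 TPM in E14Tg2a, at 307, 317 and 305 TPM (ΔK9.1) and at 306, 310.4 and 360.1 TPM (ΔK9.2). Its libraries did not overlap either, with ratios of 1.18 and 1.24. Trib3, a pseudokinase that restrains AKT and ATF4 itself, was at 38.6, 31.0 and 34.2 TPM in E14Tg2a, in ΔK9.1 at 44.2, 49.0 and 43.3 TPM and in ΔK9.2 at 45.3, 43.2 and 52.3 TPM, with ratios of 1.32 and 1.36.

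These 3 of the 9 members had all 6 clone libraries above all 3 E14Tg2a libraries on day 0, as did 5.17% of all genes, and none had them all below (2.75%), but the contrast chose the set and nothing is read from that. The other 6 overlapped. For Ddit3, which encodes the death-linked factor CHOP, the ratios were 1.23 and 1.14, and for Phgdh, which starts serine synthesis, 1.02 and 1.10. The clones differed in sign for Asns, the asparagine synthetase (0.798 in ΔK9.1 and 1.07 in ΔK9.2), for Sesn2, a leucine sensor that restrains mTORC1 (0.868 and 1.07), and for Psat1, the next enzyme of serine synthesis after PHGDH (0.873 and 1.01). Atf3, a stress-induced repressor of the same leucine zipper class, lay lower in both (0.792 and 0.735). Nanog itself had day 0 means of 344 TPM (E14Tg2a), 468 TPM (ΔK9.1) and 426 TPM (ΔK9.2).

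**Figure D1:**
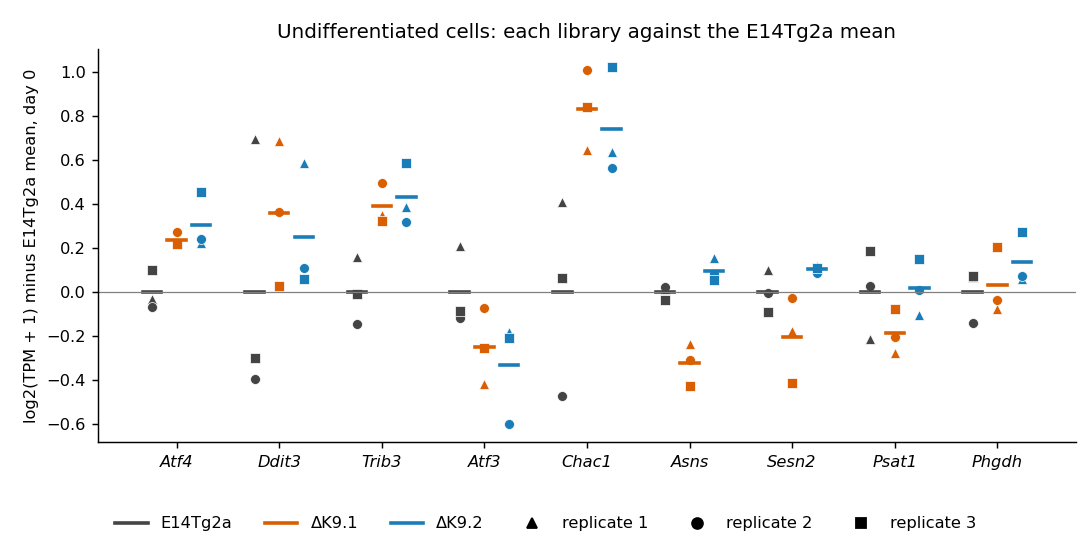
Level of each of the 9 genes in each day 0 library, as log2(TPM + 1) minus the E14Tg2a mean, with a point per library (shape gives the replicate number) and a bar for the mean of each line. For Chac1, Trib3 and Atf4 all 6 clone libraries lie above the 3 E14Tg2a libraries, and for Asns ΔK9.1 lies below and ΔK9.2 slightly above.

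The next question was how the genes moved as E14Tg2a cells differentiated. Of the 9 members, 5 were called lower on at least 1 later day, 1 was called higher, and Atf4, Sesn2 and Phgdh were not called. Chac1 is among the 5 only through day 4, against the day 0 libraries that chose the set. The share of all genes called on at least 1 later day was not counted. A gene was called between days where the adjusted p from limma was under 0.05 and the log2 difference over 1 in size. On day 4 against day 0, 4 of 9 members were called lower and none higher, while 4.07% of all genes were called lower and 3.67% higher. On day 6, 3 members were called lower (8.69% of all genes) and 1 higher (8.95%), and on day 8 again 3 lower (11%) and 1 higher (15.9%). The median difference over the members was -0.80, -0.71 and -0.88 on days 4, 6 and 8, while the median over all genes was -0.07 on day 4 and 0.05 on day 8 and lay at 0 on day 6. EBs are mixtures, and in bulk RNA fewer cells of a type and less RNA per cell cannot be told apart.

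The amino acid enzymes Asns and Psat1 were among those that fell. Asns in E14Tg2a went from 317, 318 and 306 TPM on day 0 to 148, 135 and 111 TPM on day 4, 144 and 139.5 TPM on day 6 and 117, 121 and 142 TPM on day 8. No later library was above 148 TPM, and the log2 difference was -1.26 ± 0.23 (standard error), -1.14 ± 0.26 and -1.31 ± 0.23 (adjusted p from limma 0.00028, 0.00112 and 3.49e-05). Psat1 went from 259, 307 and 342 TPM to 136, 139 and 131 TPM on day 4, 184 and 177 TPM on day 6 and 139.6, 110.2 and 151 TPM on day 8. Its difference was called on days 4 (-1.15 ± 0.23, adjusted p from limma 0.000485) and 8 (-1.18 ± 0.23, adjusted p 7.98e-05) and was -0.74 on day 6. Phgdh, in the same pathway as Psat1, kept between 107 and 171 TPM in all 11 E14Tg2a libraries, and its differences, from -0.23 to -0.17, were not called.

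Trib3 was lower than on day 0 on every later day. It went from 34.6 ± 3.79 TPM (SD, n = 3) on day 0 to 13.8 ± 5.64 TPM on day 4, 8.78 ± 1.38 TPM (n = 2) on day 6 and 12.5 ± 7.41 TPM on day 8. The log2 differences were -1.32, -1.87 and -1.52 (adjusted p from limma 0.00539, 0.000372 and 0.00048). Atf4 went from 263 ± 16.3 TPM to 150.2 ± 4.00, 160.3 ± 6.75 and 169.9 ± 25.1 TPM. Its libraries after day 0 all lay at 187 TPM or below and those of day 0 at 251 TPM or above. The differences of -0.80, -0.71 and -0.64 had small adjusted p-values from limma (2.61e-05, 0.000173 and 7.57e-05) but stayed under the size required for a call. Sesn2 fell to 30.5 ± 8.20 TPM on day 8, with a difference of -0.99 that lay just under that size and passed it with a pseudocount of 0.1 (-1.01) or with median ratio scaling (-1.07).

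Chac1 in E14Tg2a was at 9.05, 4.85 and 3.17 TPM on day 4, 13.4 and 8.06 TPM on day 6 and 14.3, 4.14 and 9.55 TPM on day 8. Its libraries spread widely, and only the day 4 difference was called (-1.47 ± 0.43, adjusted p from limma 0.0129). Its value without E14Tg2a day 0 replicate 1 was -1.26 (adjusted p 0.0605), without E14Tg2a day 4 replicate 3 it was -1.18 (adjusted p 0.0846), and with the libraries of days 0 and 4 alone the adjusted p was 0.0517. The comparison shares the day 0 libraries that chose the set. On days 6 and 8 the difference was -0.60 and -0.88 (adjusted p 0.344 and 0.0824). The day 8 difference was called without E14Tg2a day 8 replicate 1 (-1.23, adjusted p 0.0269).

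Both stress-induced factors followed other courses. Ddit3 in E14Tg2a was at 58.7, 27.0 and 28.9 TPM on day 0 and 78.1, 34.5 and 31.2 TPM on day 4, dropped to 11.9 and 13.2 TPM on day 6 and was back at 33.6, 34.0 and 25.6 TPM on day 8. Only day 6 was called (-1.44 ± 0.36, adjusted p from limma 0.00214). Day 6 was the lowest point in all lines, with means of 12.6, 9.79 and 8.95 TPM in E14Tg2a, ΔK9.1 and ΔK9.2. Atf3 was the only member that rose, from 3.95, 2.95 and 3.04 TPM on day 0 and 5.54, 3.10 and 2.81 TPM on day 4 to 9.62 and 14.6 TPM on day 6 and 10.4, 13.0 and 14.1 TPM on day 8. The differences of 1.58 ± 0.30 on day 6 and 1.64 ± 0.27 on day 8 were both called (adjusted p from limma 0.000139 and 9.39e-06).

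**Figure D2:**
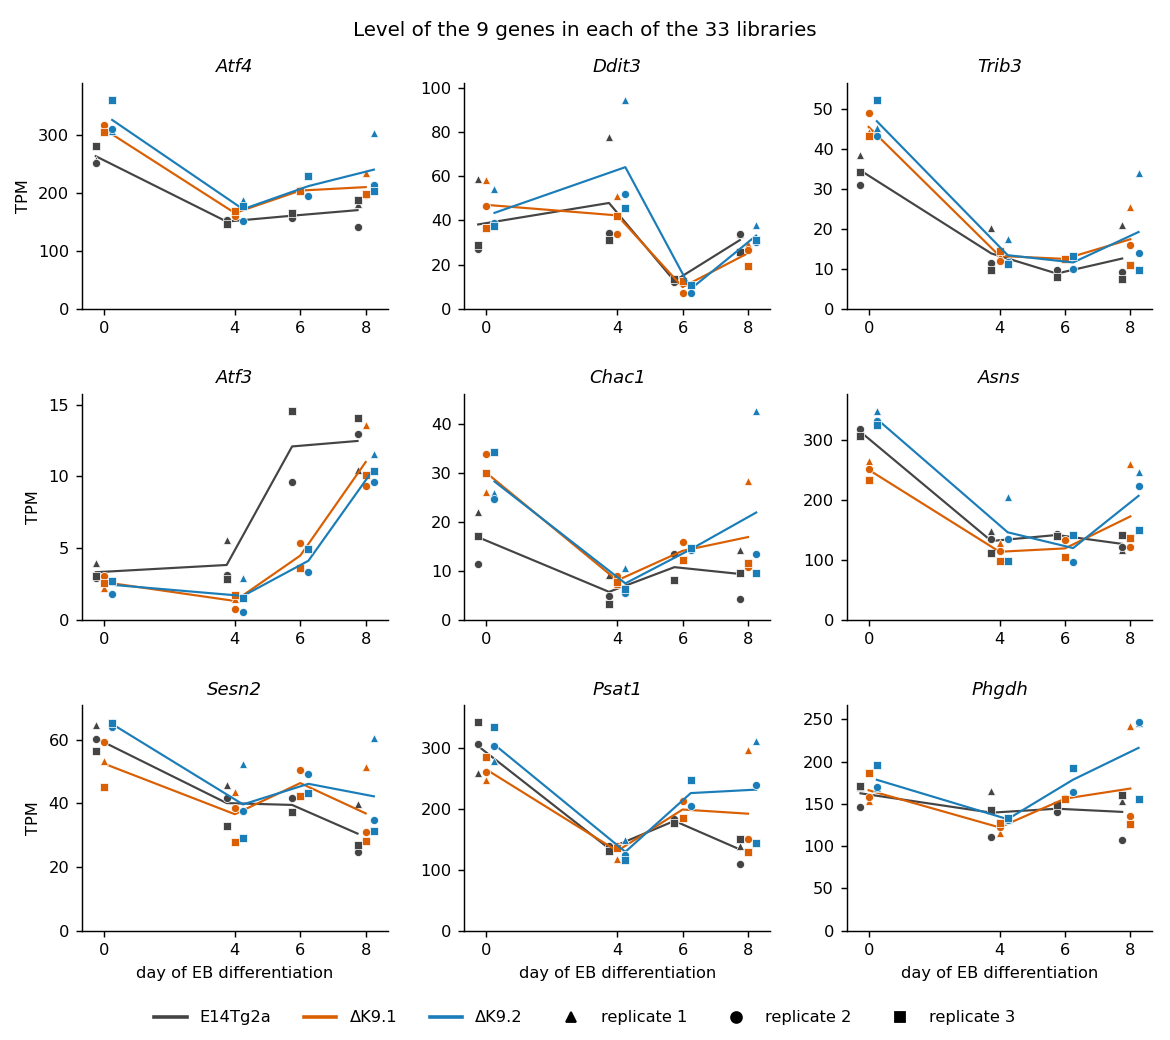
TPM of the 9 genes on days 0, 4, 6 and 8 of EB differentiation in E14Tg2a (grey), ΔK9.1 (orange) and ΔK9.2 (blue), with a point per library, shaped by replicate number, and lines through the group means. Asns, Psat1, Trib3 and Chac1 fall from day 0 to day 4 in all lines, and Ddit3 has its low point on day 6. The Atf3 mean rises by day 6 in all lines, less in the clones (called only in E14Tg2a), and further by day 8 in the clones.

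The clones took a similar course at the start. On day 4 the same 4 members, Trib3, Chac1, Asns and Psat1, were called lower in ΔK9.1 (4.02% of all genes were called lower) and in ΔK9.2 (5.09%), and none was called higher (1.37% and 2.53%). In ΔK9.1 the median of all genes lay at -0.21 on day 4, and in ΔK9.2 at -0.16. With each library rescaled by its median ratio, the Asns and Psat1 differences in ΔK9.1, -1.14 and -1.01, became -0.87 and -0.74, under the size for a call, and 2 members were called. The Psat1 value also lay just under that size without ΔK9.1 day 4 replicate 1 (-0.94) or day 0 replicate 3 (-0.96). Chac1 went from 30.0 ± 3.89 to 8.03 ± 0.88 TPM in ΔK9.1 and from 28.2 ± 5.19 to 7.42 ± 2.74 TPM in ΔK9.2 (SD, n = 3 each), values that start from the libraries that chose the set.

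On day 6 Ddit3, Trib3 and Asns were called lower in both clones (7.9% and 10.5% of all genes), and no member was called higher (4.95% and 7%). The Asns call in ΔK9.1, at -1.07, was lost without its day 6 replicate 3 (-0.90) and under median ratio scaling (-0.96). On day 8 Atf3 was called higher (10.9% and 11% of all genes) and Trib3 lower (10% and 11.3%) in each clone. Asns, called lower on day 8 in E14Tg2a, was at 260.0, 121 and 136 TPM (ΔK9.1) and 247, 223 and 150.3 TPM (ΔK9.2), and was not called against day 0 in either clone. The differences of -0.62 (ΔK9.1, adjusted p from limma 0.0308) and -0.72 (ΔK9.2, adjusted p 0.0116) stayed under the size for a call.

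After differentiation, each line was compared on the same day, a contrast that did not choose the set. A gene was called where the adjusted p from limma was under 0.05 and the log2 difference over 0.3 in size. On day 4, 1 of 9 members was called lower in the mean of the clones than in E14Tg2a, and none higher (2.36% and 0.441% of all genes). On day 6 it was again 1 lower and none higher (2.72% and 1.1%), and on day 8 it was 2 higher and none lower (6.84% and 11.8%). Chac1 was called on none of these days in this fit, which does not use the replicate numbers.

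The gene called lower on days 4 and 6 was Atf3. On day 4 ΔK9.1 had 1.42, 0.75 and 1.75 TPM and ΔK9.2 had 2.94, 0.53 and 1.51 TPM, beside the 5.54, 3.10 and 2.81 TPM of E14Tg2a. The groups overlapped only through the 2.94 TPM library. The difference was -0.98 ± 0.23 (adjusted p from limma 0.0184), and -0.74 (adjusted p 0.104) without E14Tg2a day 4 replicate 1. On day 6 ΔK9.1 had 5.32 and 3.62 TPM and ΔK9.2 had 3.33 and 4.90 TPM, against 9.62 and 14.6 TPM in E14Tg2a, with no overlap. The difference was -1.30 ± 0.28 (adjusted p from limma 0.00829), and -1.02 (adjusted p 0.177) without E14Tg2a day 6 replicate 3. In a fit of the compared libraries alone neither was called (adjusted p 0.192 and 0.123). By day 8 all lines were at 9.30 to 14.1 TPM and the difference was -0.20 (adjusted p 0.614).

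Taken clone by clone, Atf3 was called lower on day 4 in ΔK9.1 (-1.04, adjusted p from limma 0.0292, with 2.51% of all genes called lower) but not in ΔK9.2 (-0.92, adjusted p 0.145, with 0.306% called lower and 0.0429% higher). The ΔK9.1 call was lost without any of 5 of the 6 libraries compared, with differences from -1.19 to -0.80 and adjusted p between 0.0506 and 0.150, and in 3 of these 5 the difference was larger in size than with all libraries. On day 6 it was called lower in ΔK9.1 (-1.25, adjusted p 0.0328, 2% of all genes) and in ΔK9.2 (-1.35, adjusted p 0.0318, 1.29%). These calls too were lost when single libraries were left out, in ΔK9.2 for each of the 4 in turn (adjusted p from 0.0766 to 0.405) and in ΔK9.1 for 3 of 4 (0.100 to 0.539).

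Markers of other cell types moved on the same days. Of 9 primitive and visceral endoderm markers, 7 were called lower in the mean of the clones on day 4 and 3 on day 6. Clone by clone, 7 (ΔK9.1) and 0 (ΔK9.2) passed on day 4 (medians -3.50 and -2.05) and 0 in each on day 6 (-2.24 and -2.29), by limma. Their summed level on day 4 was 442 TPM (107 to 852 TPM between libraries) in E14Tg2a, 18.5 TPM (6.09 to 43.3 TPM) in ΔK9.1 and 87.0 TPM (23.8 to 213 TPM) in ΔK9.2. On day 6 it was 187 TPM (122 to 251 TPM), 29.2 TPM (13.0 to 45.5 TPM) and 27.2 TPM (24.9 to 29.5 TPM). The 7 mesoderm markers summed to 617 TPM (565 to 668.5 TPM), 289 TPM (67.9 to 510.1 TPM) and 417 TPM (399.5 to 435 TPM) on day 6, and 2 of them were called lower. The 5 ectoderm markers summed to 169 TPM (162 to 173.5 TPM), 128 TPM (107 to 148.5 TPM) and 147 TPM (142 to 151.5 TPM) on day 4. These sums did not overlap between E14Tg2a and the clones, but those of day 6 did. No marker of these lists was at 0 in a group mean on these days. The 7 pluripotency markers, none of them called in the clone mean on day 4 or 6, summed to 1164 TPM (1090 to 1238 TPM), 1754 TPM (1647 to 1862 TPM) and 1891 TPM (1740 to 2042 TPM) on day 6, without overlap between E14Tg2a and the clones. The part of these cell types in the Atf3 difference was not tested.

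The genes called higher on day 8 were Atf4 and Psat1. Atf4 levels were 235, 197 and 198 TPM (ΔK9.1) and 303, 213 and 203 TPM (ΔK9.2), each above the 181, 141 and 187 TPM of E14Tg2a. It was the only member whose day 8 libraries did not overlap (5.44% of all genes lay wholly above). The difference was 0.39 ± 0.11 (adjusted p from limma 0.00929), but 0.27 (adjusted p 0.157) without E14Tg2a day 8 replicate 2, and in a fit of the compared groups alone its adjusted p was 0.178. Psat1 levels were 296, 151 and 129 TPM (ΔK9.1) and 312, 239 and 144 TPM (ΔK9.2), which overlapped the 139.6, 110.2 and 151 TPM of E14Tg2a. Its difference of 0.58 ± 0.20 (adjusted p from limma 0.0364) lost its call without E14Tg2a day 8 replicate 2 (0.45, adjusted p 0.244) or replicate 1 (0.62, adjusted p 0.0544). It also did so without replicate 1 of ΔK9.1 (0.41, adjusted p 0.0846), replicate 1 of ΔK9.2 (0.46, adjusted p 0.099) or replicate 2 of ΔK9.2 (0.56, adjusted p 0.0595), and in a fit of the compared groups alone (adjusted p 0.303).

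The other members were not called on day 8 in this fit, and their differences were -0.10 for Ddit3, 0.33 for Sesn2, 0.41 for Phgdh, 0.51 for Trib3, 0.52 for Asns and 0.90 ± 0.37 for Chac1 (adjusted p from limma 0.092 for Chac1). With the replicate number as a block, Chac1 (0.90, adjusted p from limma 0.0347) and Asns (0.52, adjusted p 0.0298) were also called. Over all 16336 genes the block called 3694 in place of 3050. Chac1 levels were 28.4, 10.8 and 11.5 TPM (ΔK9.1) and 42.6, 13.5 and 9.56 TPM (ΔK9.2), and 4 of these 6 libraries lay inside the E14Tg2a range of 4.14 to 14.3 TPM. The 2 outside it were replicate 1 of each clone, and the top of that range was replicate 1 of E14Tg2a. Number by number, E14Tg2a had 14.3, 4.14 and 9.55 TPM, and each clone library lay above its same-numbered E14Tg2a library. For replicate 3 of ΔK9.2 the values were 9.56 against 9.55 TPM. Without E14Tg2a day 8 replicate 1 the Chac1 difference was 1.25 (adjusted p 0.0324), and without ΔK9.2 day 8 replicate 3 it was 1.11 (adjusted p 0.0332). Trib3 was called without E14Tg2a day 8 replicate 1 (0.93, adjusted p 0.0312), Asns without ΔK9.1 replicate 2 (0.63, adjusted p 0.0272) or ΔK9.2 replicate 3 (0.63, adjusted p 0.0282), and Phgdh without either of these (0.47 and 0.52) or ΔK9.1 replicate 3 (0.50), with adjusted p from 0.0219 to 0.0493. Of the 9 members 5 had an unadjusted p under 0.05, as did 32% of all genes, and the median difference over the 9 was 0.41, against -0.00 over all genes. In ΔK9.1 alone no member was called on day 8 by limma (4.51% of all genes were called higher and 6.65% lower), with 1 at an unadjusted p under 0.05 (25.8% of all genes). In ΔK9.2 alone Atf4 (0.48), Asns (0.68), Psat1 (0.73) and Phgdh (0.61) were called higher and none lower (5.09% and 11.2% of all genes), with adjusted p from limma of 0.00773, 0.0477, 0.0265 and 0.0306. All 4 calls in ΔK9.2 were lost without its day 8 replicate 1, with differences of 0.30, 0.53, 0.48 and 0.50 (adjusted p from 0.0964 to 0.223), and without E14Tg2a day 8 replicate 2 (0.35, 0.65, 0.60 and 0.43, adjusted p from 0.095 to 0.241), and in a fit of the compared groups alone (adjusted p from 0.154 to 0.234). Without ΔK9.2 day 8 replicate 2, Asns (0.61, adjusted p 0.125), Psat1 (0.68, adjusted p 0.0746) and Phgdh (0.50, adjusted p 0.118) lost theirs, and Asns did so without E14Tg2a day 8 replicate 1 (0.62, adjusted p 0.105) or replicate 3 (0.76, adjusted p 0.0572). Chac1 was called in ΔK9.2 without E14Tg2a day 8 replicate 1 (1.36, adjusted p 0.0411) or ΔK9.2 day 8 replicate 3 (1.42, adjusted p 0.0340).

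Counted by library, no member had its 6 clone libraries wholly above or below the E14Tg2a libraries on day 4 (1.63% and 5.95% of all genes), and on day 8 none lay wholly below (7.99%). On day 6, with 4 clone libraries and 2 of E14Tg2a, Atf4, Trib3, Sesn2, Psat1 and Phgdh lay wholly above (12.8% of all genes) and Atf3 wholly below (19.6%).

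**Figure D3:**
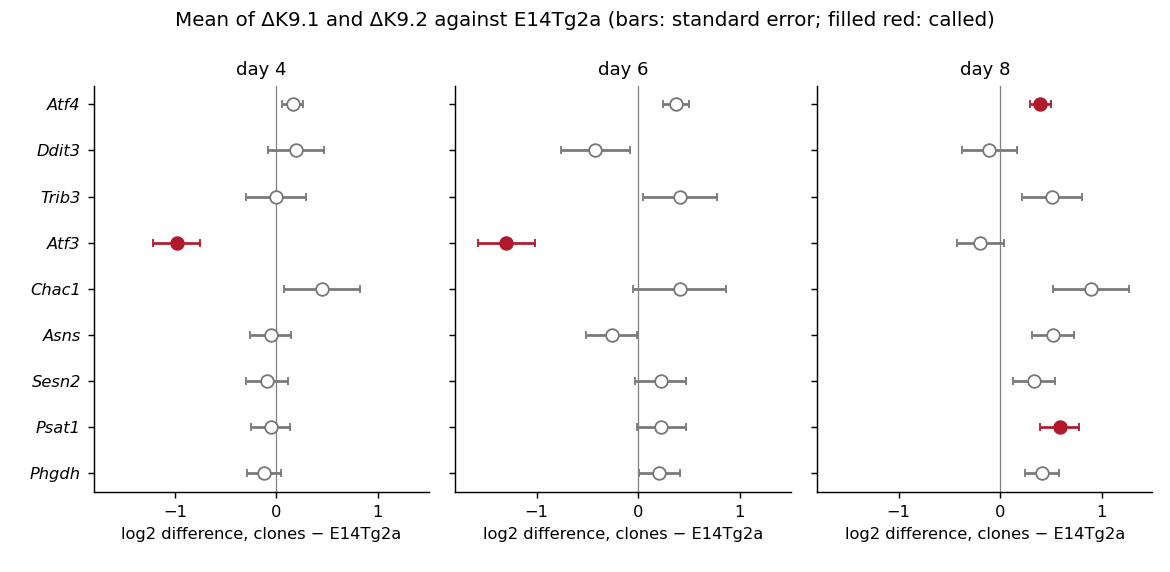
Clone mean minus E14Tg2a in log2(TPM + 1) on days 4, 6 and 8 for the 9 genes, with the standard error from limma as bars and called genes filled. Atf3 is called lower on days 4 (-0.98) and 6 (-1.30), and Atf4 (0.39) and Psat1 (0.58) are called higher on day 8.

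On day 8, 5 of the 7 pluripotency markers were called higher and 1, Klf4, lower in the clones. Their summed level was 204 TPM (152.5 to 294 TPM) in E14Tg2a, 553 TPM (335 to 884 TPM) in ΔK9.1 and 658 TPM (400.5 to 971.5 TPM) in ΔK9.2, compared with 3481, 3347 and 3628 TPM on day 0. The 9 primitive and visceral endoderm markers, 7 of them called lower, summed to 429 TPM (363 to 504 TPM), 79.8 TPM (34.4 to 141 TPM) and 64.3 TPM (55.4 to 72.3 TPM). Of the 7 mesoderm markers 3 were called higher and 1 lower, with sums of 710.5 TPM (686.5 to 747 TPM), 396 TPM (155 to 573 TPM) and 551 TPM (308 to 718 TPM). Hand1 made up 582, 257 and 316 TPM of these sums. The means of T, Mixl1, Mesp1 and Eomes were higher in both clones than in E14Tg2a, and those of Hand1, Tbx20 and Kdr lower. None of the 5 ectoderm markers was called, and their sums were 29.0 TPM (18.8 to 40.2 TPM), 54.8 TPM (37.3 to 85.3 TPM) and 55.8 TPM (31.8 to 68.4 TPM). No marker of these lists was at 0 in a day 8 group mean. Atf4 and Psat1 also stood higher on day 0 than on day 8 in every line, and the part of these cell types in the day 8 differences was not tested.

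Whether the difference between clones and E14Tg2a changed from day 4 to day 8 was tested as an interaction. No member was called by limma at an adjusted p under 0.05 (2.19% of all genes were), and 3 of 9 had an unadjusted p under 0.05, as did 17.2% of all genes: Atf3 (0.79, adjusted p 0.203), Psat1 (0.64, adjusted p 0.226) and Phgdh (0.53, adjusted p 0.241). The clones were also compared with each other. No member was called by limma on day 0 (1.81% of all genes), day 4 (0%), day 6 (0.00612%) or day 8 (0%), and none had an unadjusted p under 0.05 on any of them. For Chac1 the clones differed by 0.09 on day 0 and for Asns by -0.42, ΔK9.1 minus ΔK9.2.

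On day 8, 7 of the 9 members were higher in replicate 1 than in the mean of replicates 2 and 3 in every line. The share of all genes for which this held was not counted. In E14Tg2a the ratios of Psat1 (1.07), Atf4 (1.10), Ddit3 (1.13) and Phgdh (1.15) exceeded only 58.7%, 63.7%, 67.7% and 70.8% of genes averaging 5 TPM or more. In the clones the ratios of these genes exceeded 79.7% to 99.4%. The level of Chac1 in replicate 1 was 2.09 times the mean of replicates 2 and 3 in E14Tg2a, 2.54 times in ΔK9.1 and 3.70 times in ΔK9.2, ratios larger than those of 99.1%, 99.6% and 99.7% of genes averaging 5 TPM or more in the same libraries. Trib3 had ratios of 2.54, 1.89 and 2.86, and Sesn2 of 1.55, 1.74 and 1.83. Psat1 had 1.07, 2.11 and 1.63. Asns (0.892, 2.02 and 1.33) and Atf3 (0.771, 1.40 and 1.16) were lower in replicate 1 in E14Tg2a only. Of the 81 sets of 3 libraries formed by a member, a line and a day, replicate 1 was the highest in 49 (60.5%), while over all genes it was the highest in 42.0%. Ddit3 and Sesn2 had replicate 1 on top in 8 of 9 sets, and Phgdh in 2 of 9. Without every replicate 1 library, the day 8 difference between clones and E14Tg2a was 0.31 for Atf4 (adjusted p from limma 0.0529), 0.32 for Psat1 (adjusted p 0.198) and 0.54 for Trib3 (adjusted p 0.0441), and 1 member was called in place of 2. In that fit Chac1 was called lower on day 8 than on day 0 in all lines, with -1.03 (adjusted p 0.0109) in E14Tg2a, -1.44 (adjusted p 0.00171) in ΔK9.1 and -1.28 (adjusted p 0.00328) in ΔK9.2. The fit of all libraries had -0.88, -0.92 and -0.62 (adjusted p 0.0824, 0.0783 and 0.239). Leaving out the line's own day 8 replicate 1 alone gave -1.23, -1.35 and -1.23, all called (adjusted p 0.0269, 0.0182 and 0.0148). These comparisons with day 0 start from the libraries that chose the set.

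**Figure D4:**
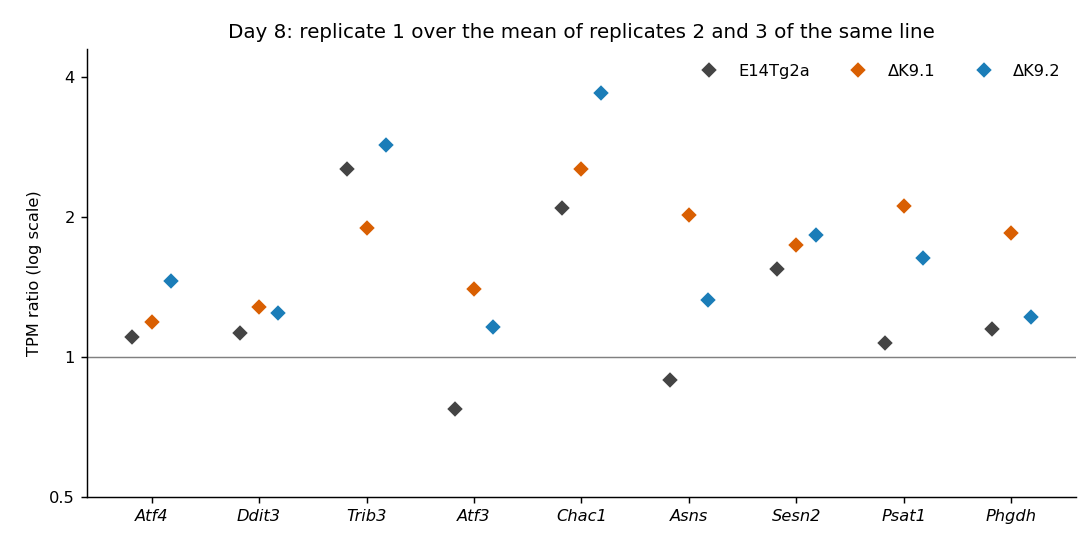
Ratio of the TPM in replicate 1 to the mean of replicates 2 and 3 on day 8, on a log scale, for the 9 genes in E14Tg2a (grey), ΔK9.1 (orange) and ΔK9.2 (blue), with the line at a ratio of 1. Chac1 (2.09 to 3.70), Trib3 (1.89 to 2.86) and Sesn2 (1.55 to 1.83) lie above 1 in all lines, and Atf3 and Asns lie below 1 in E14Tg2a.

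After the mean of each group was taken off, members were correlated across the 33 libraries. The median Pearson r over the 36 pairs of members was 0.55, with a range from 0.07 to 0.85, and 21 pairs (58.3%) were over 0.5. Over all pairs of genes in the table the median was 0.06 and 6.92% were over 0.5. The closest pairs were Trib3 with Chac1 (0.85), Psat1 with Phgdh (0.81), the 2 consecutive enzymes of serine synthesis, and Chac1 with Sesn2 (0.80). Ddit3 with Psat1 was the loosest (0.07), and Atf3 had 0.35 with Trib3. These are descriptions over libraries that share lines, days and replicate numbers.

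Across the 12 group means the pattern of Chac1 ran from 30.0 TPM in ΔK9.1 on day 0, 28.2 TPM in ΔK9.2 on day 0 and 21.9 TPM in ΔK9.2 on day 8 down to 8.03, 7.42 and 5.69 TPM in ΔK9.1, ΔK9.2 and E14Tg2a on day 4. Each neighbouring pair in that order had overlapping libraries. Among 12080 genes with at least 5 TPM in 1 group, those with the most similar course were Adar (r = 0.97), Arl14ep (0.96), Mthfd2 (0.96), Mrpl55 (0.94) and Atf4 itself (0.94), over 12 group means that share lines and days and include the 3 day 0 means that chose the set, so these r are a description only. For the other members r with Chac1 was 0.90 for Psat1, 0.79 for Phgdh, 0.76 for Trib3, 0.75 for Asns and 0.67 for Sesn2, but 0.06 for Atf3 and -0.06 for Ddit3. The genes most similar to Asns were Slc7a1 (0.98), Pdha1 (0.98), Tmem161b (0.97), Shmt2 (0.97) and Clasp2 (0.96). Mthfd2 and Shmt2 are mitochondrial enzymes of one-carbon metabolism, and Slc7a1 imports cationic amino acids.

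The wider pathway was read from lists of its parts, with counts beside the share of all genes given above. In E14Tg2a on day 8 against day 0, none of the 8 kinases, phosphatase subunits and substrate of the eIF2alpha step was called in either direction. Among 18 leucine zipper partners and other ATF4 outputs, 7 were called lower and 3 higher, with a median of -0.21 against 0.05 over all genes. The largest falls were of Nupr1, a stress-induced chromatin protein (60.1 to 4.48 TPM, -3.54 ± 0.28), and Cbs, which feeds homocysteine into cysteine synthesis (15.1 to 1.80 TPM, -2.54 ± 0.38). The largest rises were of Vldlr, a lipoprotein receptor (4.03 to 29.7 TPM, 2.58 ± 0.40), and Jdp2, a leucine zipper factor (12.4 to 34.4 TPM, 1.38 ± 0.20).

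The metabolic lists had medians below 0 in E14Tg2a on day 8. Of 10 serine, glycine and one-carbon enzymes 4 were called lower and none higher (median -0.77), led by Mthfd1 (171 to 61.4 TPM, -1.49 ± 0.13) and Gldc, of the glycine cleavage system (80.6 to 27.2 TPM, -1.48 ± 0.30). Of 10 amino acid transporters, out of 11 listed, 4 were called lower and 1 higher (median -0.46). Slc7a3, a cationic amino acid importer, went from 64.0 to 13.3 TPM (-2.23 ± 0.29) and Slc1a5, a glutamine importer, from 50.9 to 16.8 TPM (-1.55 ± 0.19), while Slc43a1 rose from 4.17 to 15.5 TPM (1.74 ± 0.27). All 12 cytosolic aminoacyl-tRNA synthetases lay under 0 (median -0.80), but only Aars (-1.20) and Cars, just past the size for a call, were called. The Cars call was lost without E14Tg2a day 0 replicate 1 or day 8 replicate 2. All these list genes had adjusted p-values from limma of 0.000153 or less.

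Lists of other stress pathways served for comparison. Of 11 glutathione and NRF2 genes 4 were called lower and none higher (median -0.88), led by Nqo1 (-2.60) and Srxn1 (-1.86). Of 18 endoplasmic reticulum chaperones and unfolded protein response genes, 1 was called, Dnajc3 (1.03), and the median was 0.20. Of 10 p53 targets 1 was called, Sesn1 (1.02), and the median was -0.27. The Dnajc3 and Sesn1 differences lay just above the size for a call and were lost under median ratio scaling.

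In the clones against E14Tg2a no gene of the first 5 pathway lists was called on day 4, and 1 was on day 6, Slc7a3 (1.32 ± 0.31, adjusted p from limma 0.0146). Its day 6 call was lost without any of 4 of the 6 libraries. On day 8 the lists of ATF4 outputs, one-carbon enzymes, transporters and synthetases had 4, 2, 3 and 1 genes called higher and 1, 0, 0 and 0 called lower, with medians of 0.19, 0.27, 0.22 and 0.29 against -0.00 over all genes. In ΔK9.1 alone 1, 1, 0 and 0 genes were called higher and 1 ATF4 output lower (medians 0.13, 0.25, 0.20 and 0.22). In ΔK9.2 alone 4, 2, 2 and 1 were called higher and none lower (0.24, 0.33, 0.36 and 0.39). Among the genes called in the clone mean were Cbs (1.15), Cth, which makes cysteine (0.84), Mthfd1 (0.49), Slc7a3 (0.97), Slc7a5, the large neutral amino acid importer (0.58), and Mars (0.49), with Jdp2 lower (-0.72). Of these, Cbs, Cth, Mthfd1, Slc7a3 and Slc7a5 were called lower on day 8 than on day 0 in E14Tg2a. Cth, for instance, went from 88.2 to 20.5 TPM there and stood at 32.5 TPM (ΔK9.1) and 47.7 TPM (ΔK9.2) on day 8. The chaperone list had the other sign, with 6 of 18 called lower and none higher (median -0.28; 4 in ΔK9.1 and 5 in ΔK9.2 alone), led by Xbp1, a transcription factor of secretory cells (-0.84), and Calr (-0.70). Among the comparison lists Hmox1 was lower on day 4 (-0.40) and Gclm higher on day 6 (0.59). On day 8 Ggct (0.76) and Txnrd1 (0.39) were higher and Ccng1 (-0.68) and Sesn1 (-0.47) lower. Of the 22 pathway and marker genes that the naming rule picked for day 8, 18 lost their call in a fit of the compared groups alone, among them each gene named for the ATF4 outputs, enzymes, transporters and synthetases, as did all 6 for day 6 and all 3 for day 4. Without E14Tg2a day 8 replicate 2, 13 lost it, and without replicate 3, 9 did.

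**Figure D5:**
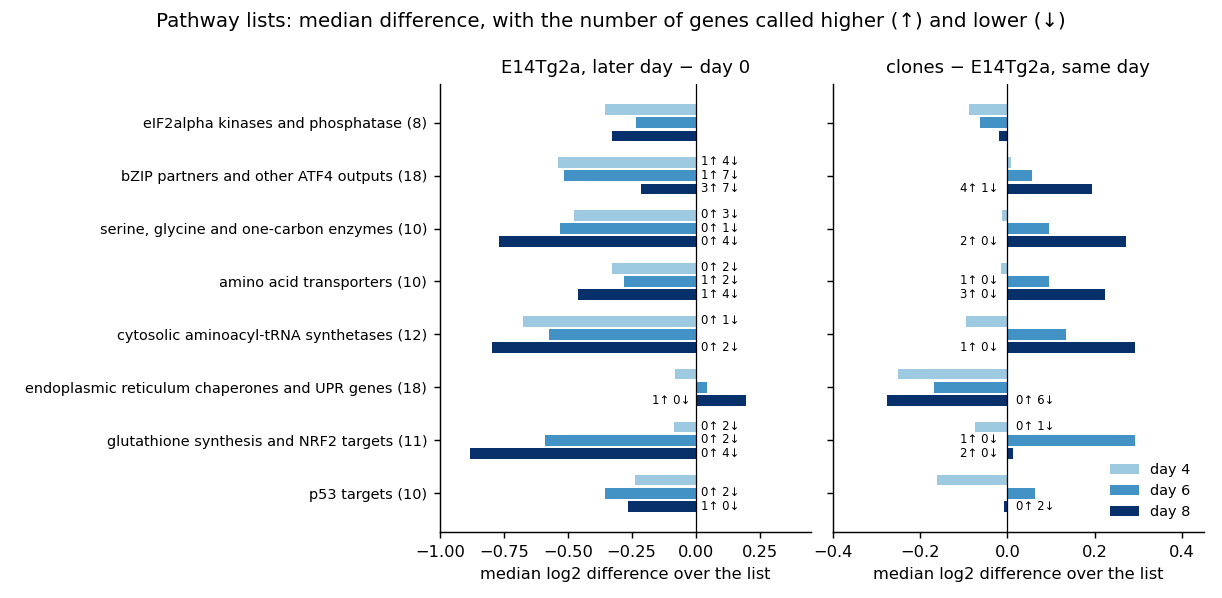
Median log2 difference over each pathway list (number of genes in brackets) for E14Tg2a on days 4, 6 and 8 against day 0 and for the mean of the clones against E14Tg2a on the same day, with the number of genes called higher and lower beside the bars. The metabolic lists have medians from -0.80 to -0.46 in E14Tg2a on day 8 and from 0.22 to 0.29 in the clones against E14Tg2a on that day, while the chaperone list has 0.20 and -0.28.

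On day 0, where the contrast chose the set and no test was made, 16 of the 18 ATF4 outputs and 9 of the 10 transporters had a clone mean above that of E14Tg2a, with medians of 0.25 and 0.17 against 0.05 over all genes. For the one-carbon enzymes it was 7 of 10 (median 0.15) and for the synthetases 7 of 12 (0.06). The eIF2alpha list had 4 of 8 (-0.02), the chaperone list 12 of 18 (0.02), the glutathione and NRF2 list 4 of 11 (-0.04) and the p53 targets 2 of 10 (-0.04). The share of all genes with a higher clone mean was not counted, and nothing is read from these counts.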

How the data were processed

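RNA was sequenced from 33 libraries of E14Tg2a, ΔK9.1 and ΔK9.2 (labelled dK9.1 and dK9.2) on days 0, 4, 6 and 8 of EB differentiation. Per the labels and the study's methods, the authors prepared stranded poly-A libraries, aligned the reads to mm10 with STAR, quantified genes with RSEM and left out libraries that stood apart in a PCA. The table as deposited by the authors gives TPM for each library, and its 22 columns of DESeq fold changes and FDR values were not used here. Tool versions and the annotation are not given in the sources used here. Every gene reached a mean of 1 TPM in at least 1 group, and TPM summed to between 994284 and 998266 per library. TPM keep no read number, so depth is unknown. Precision was taken from the spread between replicates, which the study's methods describe as 3 independent assays, with the lines differentiated in parallel.

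On the log2(TPM + 1) scale, limma 3.58.1 in R 4.3.3 (trended empirical Bayes) was run in 1 fit of all 33 libraries with a mean per group, with Benjamini-Hochberg adjustment over all 16336 genes. Calls needed an adjusted p under 0.05 and a log2 difference over 1 (days) or 0.3 (lines), with no size limit for the interaction. The fit was tested on simulated data. Positions are of GENCODE M21 and promoter sequences of RefSeq (GRCm38.p6), in which all 9 symbols matched. All 9 members were described, of each list the 2 largest called changes per direction in E14Tg2a on day 8 and in the clones on days 4, 6 and 8 (marker lists were summarised), and for Chac1 and Asns the 5 genes with the highest Pearson r. The members and lists were chosen with earlier results of these data known. Of 126 listed genes 125 were found. Slc7a11 was not analysed here, and 1 gene named by the rule is not reported here.

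The alternatives were a pseudocount of 0.1, minimums of 1 or 5 TPM, median ratio scaling, the replicate number as a block, fits of the compared groups alone and each library left out in turn. A block within each day and the removal of all replicate 1 libraries were added after the data had been seen.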

Additional observations from a re-analysis of the deposited data

How the results depend on the processing

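With each library left out in turn, the number of members called ranged from 3 to 4 (E14Tg2a and ΔK9.1) and from 4 to 4 (ΔK9.2) for day 4 against day 0, from 4 to 4, 2 to 3 and 3 to 3 for day 6, and from 4 to 6, 2 to 3 and 2 to 3 for day 8. For clones against E14Tg2a it ranged from 0 to 1 on day 4 for the mean and for each clone, from 0 to 1 on day 6 for the mean and ΔK9.1, and was 0 throughout in ΔK9.2, from a call of 1. On day 8 it ranged from 0 to 5 for the mean (2 called) and for ΔK9.2 (4 called), and was 0 in ΔK9.1. A fit of the compared groups alone called 0 members in place of 1 on day 4 (mean, ΔK9.1) and day 6 (mean, ΔK9.1 and ΔK9.2), and 0 on day 8 (mean, ΔK9.2). Over all genes it called 69, 5 and 414 for the mean on days 4, 6 and 8, in place of 457, 624 and 3050. A pseudocount of 0.1 called 0 on day 6 in ΔK9.1 and ΔK9.2, and over all genes 2000, 1503 and 1968 on day 4 against day 0 in E14Tg2a, ΔK9.1 and ΔK9.2, in place of 1265, 880 and 1245. Median ratio scaling called 2 in place of 4 in ΔK9.1 on day 4 against day 0. Without every replicate 1 library, 0 were called on day 4 in ΔK9.1, 1 on day 8 for the mean and 0 on day 8 in ΔK9.2.

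Same-numbered libraries of the same day had a median r of 0.22 between lines over 33 pairs (31 over 0.1, lowest -0.01). Other numbers had -0.13 over 60 pairs. These values and the parallel differentiation in the study's methods point to pairing by number, which no label states. With the replicate number as a block, 4 members were called on day 8 in place of 2 for the clone mean, the added ones being Chac1 (0.90, adjusted p from limma 0.0347) and Asns (0.52, adjusted p 0.0298), and over all genes 770, 1005 and 3694 on days 4, 6 and 8. Asns on day 6 against day 0 in ΔK9.1 (-0.97) then lay under the size for a call. With a block within each day, 2 members were called on day 6 for the mean and 1 on day 4 in ΔK9.2. On day 8 that block called 7 for the mean (Chac1 at an adjusted p from limma of 0.00885), 3 for ΔK9.1 and 7 for ΔK9.2, 1 in the interaction (Sesn2) and 1 between the clones on day 0 (Sesn2). Out of 16336 genes it called 1259, 1700 and 4320 for the mean on days 4, 6 and 8, 3421 and 4147 for ΔK9.1 and ΔK9.2 on day 8, 1870 in the interaction and 1226 between the clones on day 0. Neither minimum of TPM moved a count of members by over 1.5 times, and no called member changed direction in any alternative. Of the pathway and marker genes that the naming rule picked, 20 of 24 (E14Tg2a, day 8 against day 0) kept their call with each library left out, as did 0 of 3, 0 of 6 and 8 of 22 for the clones on days 4, 6 and 8. The causes were not tested. With no read numbers, counting error at low TPM (Atf3, Chac1) could not be set apart from other spread.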
